A study of Mus musculus with 2 samples.

Results

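The interferon-induced genes described here are 43 genes chosen by name, and 41 of them had a row among the 32285 genes of both count matrices; Mx1 and Mx2 had no row under those symbols. They fall into 13 GTPase genes (8 guanylate-binding proteins, Gbp2 to Gbp9, and 5 immunity-related GTPases, Iigp1, Irgm1, Irgm2, Igtp and Ifi47), 20 antiviral genes (Ifi44, Ifit1, Ifit2, Ifit3, Ifit3b, Ifit1bl1, Isg15, Rsad2, Oas1a, Oas2, Oas3, Oasl2, Usp18, Ifih1, Zbp1, Xaf1, Bst2, Ifitm3, Cmpk2 and Dhx58), 5 transcription regulators (Stat2, Irf1, Irf7, Irf9 and Nlrc5) and 3 other members (Parp14, Rnf213 and Trim30a). The study profiled mouse intestinal tumours raised with AOM-DSS, a carcinogen followed by a colitis-inducing agent, by droplet single-cell RNA sequencing. The cKO library came from Mtch2fl/fl VilCre mice, whose Cre is driven by the villin promoter and acts in intestinal epithelium, and the WT library came from Mtch2fl/fl mice without Cre, so both carried the floxed Mtch2 alleles and the same treatment. Mtch2 encodes an outer mitochondrial membrane protein, and the study's title concerns its loss in colorectal cancer. Tumours were pooled over animals into 1 library per genotype before trypsin dissociation, and the labels give no number or age for the mice.

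Interferons are secreted signals that switch on many defence genes through JAK kinases and STAT proteins. Type I and type III interferons act mainly through a complex that contains STAT2 and IRF9 and binds the interferon-stimulated response element (ISRE), whereas interferon gamma, made chiefly by T and NK cells, acts at the gamma-activated site (GAS) and through IRF1. In the mouse, guanylate-binding proteins and immunity-related GTPases attack the vacuoles of intracellular pathogens and are strongly induced by interferon gamma, while the Ifit, Oas and Rsad2 products act on viral RNA or its synthesis.

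With 1 library per genotype there is no test between cKO and WT. Levels are UMIs summed over the cells of a class per 1000000 UMIs of that class (CPM), and each log2 ratio of cKO over WT is given with a 95% interval that covers counting error only. The cKO library held 4388 cells after filtering and the WT library 7243, with medians of 6927.5 and 3724 UMIs per cell. Cells were named from marker genes, which gave 2019 cKO and 3125 WT epithelial-like cells, 391 and 286 T-like cells, 330 and 260 macrophage and monocyte-like cells, and 377 and 209 neutrophil-like cells. Of 32 clusters 5 stayed unnamed, the largest with 555 cKO and 2586 WT cells. Epithelial markers summed to 11730 CPM in cKO and 12600 CPM in WT epithelial-like cells, and Mtch2 stood at 23.4 CPM in cKO and 93.3 CPM in WT epithelial-like cells. Both libraries mixed animals of both sexes in different proportions: 15.8% of cKO and 31.6% of WT epithelial-like cells were assigned female by Xist, and 57.5% and 36.6% were assigned male by Y-linked genes. The libraries shared 22 barcodes, of which 14 were kept in both.

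Among members with a reference window, the GTPase and antiviral genes with the largest drop and the least change in epithelial-like cells were taken. Irf1, a regulator, was added, and of its 2 windows the 1 with more motif matches is printed. Promoter sequences of these 5 members are shown. Each is the 250 bases upstream of the start, 5′ to 3′, from RefSeq on GRCm38.p6, with capitals marking matches on either strand to the ISRE core (GAAA, any 2 bases, GAAA) or to the GAS motif TTCNNNGAA.
Igtp: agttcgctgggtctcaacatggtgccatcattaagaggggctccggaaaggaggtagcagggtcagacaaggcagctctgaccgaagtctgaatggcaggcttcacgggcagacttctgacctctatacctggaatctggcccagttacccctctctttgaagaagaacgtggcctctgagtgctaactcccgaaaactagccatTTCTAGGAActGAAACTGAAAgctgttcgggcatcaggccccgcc
Gbp7: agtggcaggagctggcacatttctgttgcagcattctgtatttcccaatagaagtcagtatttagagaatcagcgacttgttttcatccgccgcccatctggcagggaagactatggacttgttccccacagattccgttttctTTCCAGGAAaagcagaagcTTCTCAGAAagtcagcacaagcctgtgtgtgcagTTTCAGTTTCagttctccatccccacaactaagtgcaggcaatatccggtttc
Rsad2: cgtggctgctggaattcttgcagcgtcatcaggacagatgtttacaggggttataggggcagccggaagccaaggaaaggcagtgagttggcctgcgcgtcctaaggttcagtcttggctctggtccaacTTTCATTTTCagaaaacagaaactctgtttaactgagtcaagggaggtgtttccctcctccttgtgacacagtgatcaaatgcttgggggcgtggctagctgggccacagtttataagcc
Ifitm3: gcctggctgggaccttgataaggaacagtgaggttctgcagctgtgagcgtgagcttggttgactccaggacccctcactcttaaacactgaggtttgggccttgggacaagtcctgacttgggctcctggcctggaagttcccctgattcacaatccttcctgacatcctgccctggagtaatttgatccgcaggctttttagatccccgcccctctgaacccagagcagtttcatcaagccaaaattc
Irf1: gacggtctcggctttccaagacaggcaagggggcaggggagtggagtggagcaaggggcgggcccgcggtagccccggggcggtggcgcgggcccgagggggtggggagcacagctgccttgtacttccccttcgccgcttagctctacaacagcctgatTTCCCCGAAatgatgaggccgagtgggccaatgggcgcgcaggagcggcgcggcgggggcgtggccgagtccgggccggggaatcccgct
The windows lie at chr11:58199306-58199555 on the plus strand for Igtp, chr3:142530086-142530335 on the plus strand for Gbp7, chr12:26456453-26456702 on the minus strand for Rsad2, chr7:141010745-141010994 on the minus strand for Ifitm3 and chr11:53769764-53770013 on the plus strand for Irf1. Igtp held 1 ISRE match and 1 GAS match, Gbp7 held 1 ISRE match and 2 GAS matches, Rsad2 held 1 ISRE match, Irf1 held 1 GAS match and the Ifitm3 window held none. No ISRE match overlapped a GAS match in these 5 windows. The Irf1 window that is not printed held neither motif. Over the 30 members with a window, 60% of genes had an ISRE match and 26.7% a GAS match, beside 3.46% and 8.13% of all 27025 genes. An ISRE match was found in 87.5% of the 8 GTPase genes and 56.2% of the 16 antiviral genes, and a GAS match in 50% and 18.8% of them.

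Over all cKO epithelial-like cells, most members stood lower than in WT, but the count depended on the sex of the cells. Of the 41 members, 34 were measured, meaning 10 CPM or more in either library, and 31 of these were lower in cKO at any size, where 55.7% of the 9401 genes measured in this class were lower. The interval lay below 0 for 28 members, beside 35.9% of all genes, and above 0 for 3 members, beside 26.5%. A drop of 1.5-fold or more was seen in 4 members, Iigp1, Gbp4, Gbp8 and Rsad2, against 1.14% of all genes, and a rise of that size in none, against 0.84%. The median log2 ratio was -0.31 over the 34 members and -0.02 over all measured genes. In cells assigned male 12 of the 34 were higher in cKO. In cells assigned female 17 members were lower by 1.5-fold or more, counted among members at 10 CPM or more in those cells rather than the 34. Shares over all genes were not counted within a sex, so these counts by sex have no background beside them.

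**Figure D1:**
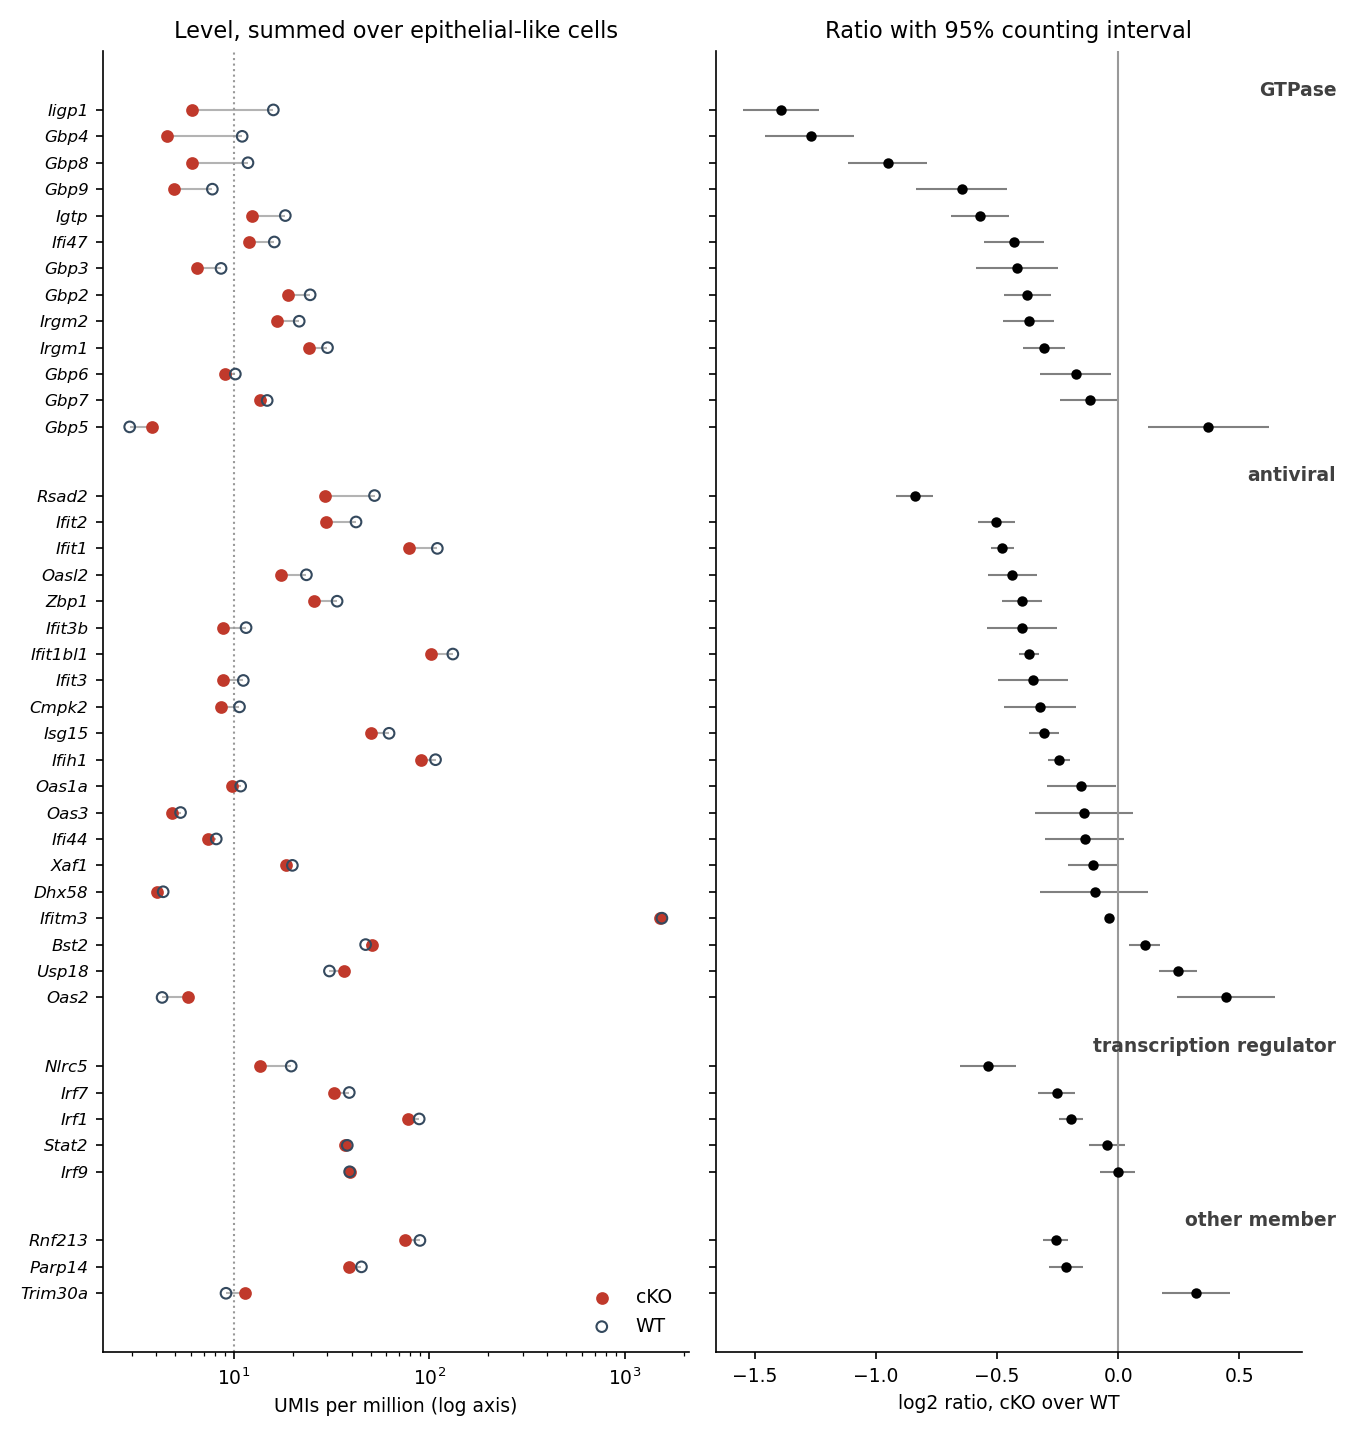
Levels (left, CPM on a log axis; dotted line at 10) and log2 ratios of cKO over WT (right, bars are 95% counting intervals) of the 41 interferon-induced genes in epithelial-like cells. Most ratios sit left of 0, the lowest at -1.39 for Iigp1, while Usp18, Bst2 and Trim30a sit to the right.

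Over all epithelial-like cells the GTPase genes had the lowest summed ratio of the lists. In cells assigned female the full antiviral list stood at -0.46, still above the GTPase genes. Only the antiviral list without Ifitm3, added after seeing the data, stood lower in those cells. There the antiviral genes without Ifitm3 stood at -0.85 and the GTPase genes at -0.56. In the same order the ratios were -0.62 and -0.56 in cells with no sex assigned, and 0.02 and -0.47 in cells assigned male. In the whole class the 13 GTPase genes summed to 139 CPM in cKO and 194 CPM in WT epithelial-like cells, a log2 ratio of -0.48 (-0.52 to -0.44). All 10 measured GTPase genes were lower, with a median log2 ratio of -0.40. Iigp1, an effector that coats pathogen vacuoles, had 429 UMIs (6.07 CPM) in cKO and 1483 UMIs (15.9 CPM) in WT, 2.62-fold lower (log2 ratio -1.39, -1.55 to -1.24). These UMIs came from few cells: 64 cKO cells (3.17%) and 226 WT cells (7.23%) had any Iigp1 UMI, and the highest single cell held 89 in cKO and 120 in WT. In neutrophil-like cells, where Iigp1 was near its lowest, 1.33% of cKO and 1.91% of WT cells had a UMI, at median depths of 4730 and 3943 UMIs per cell; epithelial-like cells had medians of 27590 in cKO and 20400 in WT.

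The guanylate-binding proteins are given by gene cluster. Gbp2, Gbp3, Gbp5 and Gbp7, which lie between positions 142493978 and 142638008 of chromosome 3 (GRCm38), summed to 42.8 CPM in cKO and 50.9 CPM in WT, a log2 ratio of -0.25 (-0.32 to -0.18). Gbp4, Gbp6, Gbp8 and Gbp9, between 105014150 and 105293698 of chromosome 5, summed to 24.7 CPM in cKO and 40.8 CPM in WT, a log2 ratio of -0.72 (-0.81 to -0.64). Gbp4 was at 4.57 CPM in cKO and 11.02 CPM in WT (-1.27), and Gbp8 at 6.11 and 11.8 CPM (-0.95), so the lower chromosome 5 sum lay with these and Gbp9 (-0.64). Gbp6, on the same chromosome, was at 9.01 CPM in cKO and 10.2 CPM in WT (-0.17), nearer to Gbp7 on chromosome 3 than to Gbp4 or Gbp8. Gbp7 was at 13.6 and 14.8 CPM (-0.12) with an interval that reached 0. Gbp5, an inflammasome-promoting member below the 10 CPM limit, was at 3.79 CPM in cKO and 2.93 CPM in WT. The annotated spans of Gbp4, Gbp8 and Gbp9 overlap and these genes are close relatives, so the division of reads among them is uncertain.

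The immunity-related GTPases on chromosome 11 moved less than Iigp1. Irgm1, Irgm2, Igtp and Ifi47 summed to 65.4 CPM in cKO and 86.1 CPM in WT epithelial-like cells, a log2 ratio of -0.40 (-0.45 to -0.35). Igtp, a regulatory member that guards the cell's own membranes, was at 12.4 CPM in cKO and 18.3 CPM in WT (-0.57, -0.69 to -0.45). Irgm1, also regulatory, was at 24.4 CPM in cKO and 30.1 CPM in WT (-0.31). Igtp and Irgm2 have overlapping annotated spans, which makes the division of reads between them uncertain.

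Among antiviral genes most UMIs came from Ifitm3, which blocks viral entry at the cell membrane and endosome. Ifitm3 made up 71.9% of the antiviral UMIs in cKO and 68.0% in WT epithelial-like cells, and it stood at 1507 CPM in cKO and 1547 CPM in WT (-0.04, -0.05 to -0.03). All 20 antiviral genes together reached 2095 CPM in cKO and 2274 CPM in WT (-0.12, -0.13 to -0.11). The other 19 reached 588 CPM in cKO and 727 CPM in WT, a log2 ratio of -0.31 (-0.32 to -0.29). Counted gene by gene, 14 of 16 measured antiviral genes were lower and the median log2 ratio was -0.34, against -0.40 for the GTPase genes; the difference between the lists was not tested. The antiviral median was -0.75 among female cells, 0.003134 among male cells and -0.061 when per-cell CPM was averaged, while the GTPase median stayed between -0.69 and -0.36 over the alternatives run. Each median used the members that reached the level limit in the cells of that setting, so the genes behind it differed between some settings.

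Rsad2, which makes a chain-terminating nucleotide against viral polymerases, showed the largest antiviral drop, at 29.3 CPM in cKO and 52.4 CPM in WT (-0.84, -0.91 to -0.77). Its window, printed above, held 1 ISRE match. The 5 Ifit genes between positions 34550694 and 34650009 of chromosome 19, whose products bind viral RNA, summed to 228 CPM in cKO and 306.5 CPM in WT (-0.43, -0.45 to -0.40). Within that cluster Ifit1 was at 78.8 CPM in cKO and 109.8 CPM in WT, and Ifit1bl1 at 102 and 132 CPM. Ifit3 and Ifit3b are near-identical copies, at 8.76 and 8.77 CPM in cKO and 11.2 and 11.5 CPM in WT, and their separate values are uncertain. The Oas genes, which sense double-stranded RNA, summed to 37.8 CPM in cKO and 43.9 CPM in WT (-0.22, -0.29 to -0.15).

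Isg15, a ubiquitin-like modifier, was at 50.3 CPM in cKO and 62.2 CPM in WT (-0.31). Usp18, which removes ISG15 and restrains the type I receptor, was instead higher, at 36.6 CPM in cKO and 30.8 CPM in WT (0.25, 0.17 to 0.32), although in cells assigned female its log2 ratio was -0.75 (-0.99 to -0.52). Bst2, which tethers budding virions, was at 50.9 CPM in cKO and 47.2 CPM in WT (0.11, 0.05 to 0.17). Its ratio was -0.64 in cells assigned female and -0.064 with equal weights for clusters of 100 or more cells in each library. The RNA sensor gene Ifih1 was at 90.9 CPM in cKO and 107.5 CPM in WT (-0.24), and Zbp1, a sensor of Z-form nucleic acid, at 25.6 and 33.7 CPM (-0.40).

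The 5 transcription regulators had a median log2 ratio of -0.19, and 3 of their intervals lay below 0. Irf9 was at 39.1 CPM in both cKO and WT epithelial-like cells, and Stat2 at 36.8 CPM in cKO and 38.02 CPM in WT (-0.05), with intervals that included 0. Irf1 was at 77.6 CPM in cKO and 88.7 CPM in WT (-0.19), and Irf7 at 32.7 and 38.9 CPM (-0.25). Nlrc5, the activator of class I antigen presentation genes, had the lowest ratio of the 5, at 13.5 CPM in cKO and 19.6 CPM in WT (-0.54, -0.65 to -0.42). Of the remaining members, the ubiquitin ligase gene Rnf213 was at 74.8 CPM in cKO and 89.5 CPM in WT (-0.26), Parp14 at 38.7 and 44.9 CPM (-0.22), and Trim30a at 11.4 and 9.11 CPM (0.32).

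Per cell, the epithelial levels were uneven in both libraries. The tenth of epithelial-like cells with the highest rates held 55.2% of the cKO and 54.6% of the WT GTPase rate, and 62.7% and 64.8% of the rate of the antiviral genes without Ifitm3. After each cell was thinned to 3000 UMIs, which left out 391 cKO and 389 WT cells, a GTPase UMI was found in 27.2% of 1628 cKO and 30.5% of 2736 WT cells; without thinning the shares were 66.3% and 66.1%. For the antiviral genes without Ifitm3 the thinned shares were 52.1% in cKO and 51.1% in WT. Mast and basophil-like cells, a class with a low GTPase level, had a thinned GTPase share of 23.1% in cKO and 16.3% in WT, at median depths of 6584 and 4069 UMIs.

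Signs of other cells and of RNA quality also differed between the epithelial sums. Neutrophil markers in epithelial-like cells summed to 121.6 CPM in cKO and 47.4 CPM in WT, macrophage and monocyte markers to 84.1 and 76.7 CPM, T markers to 13.8 and 12.2 CPM, fibroblast markers to 10.04 and 5.38 CPM, and erythroid markers to 104.7 and 7.21 CPM, with no marker of these lists at 0. Mast and basophil markers were lower in cKO, at 25.7 CPM in cKO and 46.4 CPM in WT, as were dendritic markers, at 23.1 and 26.7 CPM, and plasma markers, at 289 and 307 CPM. Endothelial markers summed to 17.6 CPM in cKO and 18.98 CPM in WT, which was 0.37% and 0.36% of their level in endothelial-like cells. Mitochondrially encoded genes took 62390 CPM in cKO and 53510 CPM in WT, and dissociation stress genes 11490 and 11930 CPM. The part of these in the results, Iigp1 included, was not tested. Iigp1 in epithelial-like cells was 2.75% of its endothelial-like level in cKO and 3.26% of its fibroblast-like level in WT.

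Across the 11 epithelial-like clusters, which were formed without these genes, the members did not share 1 pattern. Clusters 13 (led by Saa1, with median mitochondrial shares of 16.2% in cKO and 14.3% in WT) and 8 (led by Ly6m and Krt20) stood highest for Irf7, Oasl2, Zbp1 and Gbp2 in both libraries, and for Ifit1bl1 together with cluster 5, a cluster of low depth. Ifit1bl1 reached 550 CPM in cKO and 704 CPM in WT in cluster 8, 713 and 1150.0 CPM in cluster 13, and 677 and 498 CPM in cluster 5, but 7.19 CPM in cKO and 8.42 CPM in WT in cluster 1 (led by Pnliprp2). Irf7, the amplifier of type I responses, reached 273 CPM in cKO and 367 CPM in WT in cluster 13, against 8.68 and 12.4 CPM in cluster 1. Gbp2 reached 81.6 CPM in cKO and 107 CPM in WT in cluster 8, against 4.47 and 5.92 CPM in cluster 1.

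Ifitm3 ran the other way. It was at 2919 CPM in cKO and 2795 CPM in WT in cluster 1, 2400 and 2262 CPM in cluster 2 (led by S100g), and 2196 and 2088 CPM in cluster 16 (led by Top2a), but at 156 and 261 CPM in cluster 8 and 55.7 and 79.0 CPM in cluster 18 (led by Sycn and Muc3). Cluster 1 was also high in Usp18, Ifih1 and Ifit1. Usp18 stood there at 104.6 CPM in cKO and 75.1 CPM in WT, Ifih1 at 242 and 227 CPM, and Ifit1 at 226 and 251 CPM.

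The chromosome 3 and chromosome 5 guanylate-binding genes were also high in different clusters. The chromosome 3 genes summed to 133 CPM in cKO and 167 CPM in WT in cluster 8 and 204 and 316 CPM in cluster 13, against 22.8 and 26.8 CPM in cluster 1. The chromosome 5 genes summed to 60.3 CPM in cKO and 105.6 CPM in WT in cluster 1 and 53.3 and 54.9 CPM in cluster 4 (led by Lgr5), against 6.64 and 14.0 CPM in cluster 8. As a description over the 11 clusters, which come from 1 library each time, the rank correlation of the GTPase sum with the antiviral sum without Ifitm3 was 0.64 in cKO and 0.61 in WT, and with Ifitm3 it was -0.22 and -0.40.

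**Figure D2:**
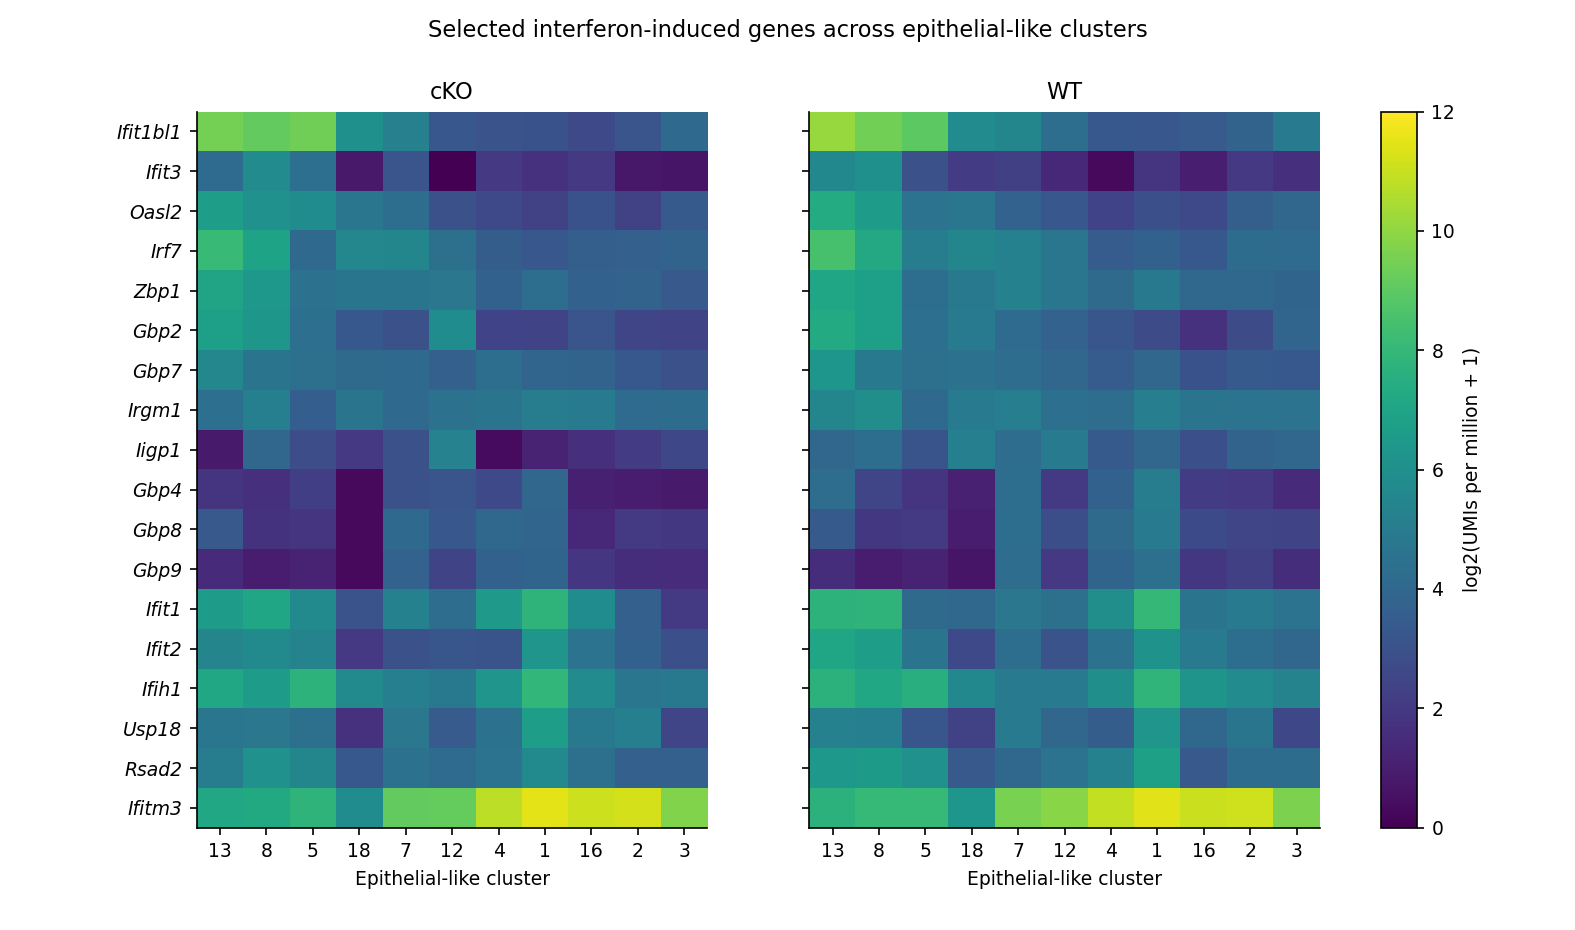
Level (colour, log2 of CPM plus 1) of 18 interferon-induced genes in the 11 epithelial-like clusters, cKO left and WT right. Irf7 and Gbp2 are brightest in clusters 13 and 8, Ifitm3 in clusters 1, 2, 16 and 4, and Gbp4, Gbp8 and Gbp9 in clusters 1, 4 and 7.

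The cKO difference was uneven over clusters. The GTPase sum was lower in cKO in 8 of 11 clusters, with 7 intervals below 0 and 2 above. It was lowest in ratio in cluster 18, at 80.6 CPM in 85 cKO cells and 188 CPM in 94 WT cells (-1.22, -1.42 to -1.03), and it was higher in cluster 12 (led by Defa24, Lyz1 and Spink4), at 223 CPM in 76 cKO cells and 133.5 CPM in 202 WT cells (0.74, 0.59 to 0.89). In cluster 12, Gbp2 was at 57.0 CPM in cKO and 12.7 CPM in WT, while the antiviral sum was at 779 and 1174 CPM (-0.59). The antiviral sum without Ifitm3 was lower in 6 of 11 clusters, most in cluster 13 (1728 CPM in cKO and 2773 CPM in WT, -0.68), and higher in cluster 5 (1332 and 983 CPM, 0.44), where the median depth per cell was 2244 UMIs in cKO and 4528 UMIs in WT.

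Iigp1 was lower in cKO in 10 of 11 clusters, with 9 intervals below 0 and 1 above. In cluster 1 it had 19 UMIs (1.29 CPM) in cKO and 320 UMIs (14.8 CPM) in WT, and in cluster 4 it had 1 UMI in cKO and 86 UMIs in WT. In clusters 8 and 12 the libraries were closer, with 14.7 CPM in cKO and 19.1 CPM in WT in cluster 8, and 39.5 and 29.8 CPM in cluster 12.

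Split by the sex of the cells, the antiviral ratio was far below 0 in cells assigned female and near 0 in cells assigned male, while the GTPase ratio was below 0 in both. In the 540 cKO and 994 WT cells with no sex assigned, the ratio was -0.62 (-0.66 to -0.58) for the antiviral genes without Ifitm3 and -0.56 (-0.63 to -0.49) for the GTPase genes. In epithelial-like cells assigned female (319 in cKO and 986 in WT), the antiviral genes without Ifitm3 summed to 473 CPM in cKO and 850 CPM in WT, a log2 ratio of -0.85 (-0.90 to -0.80). In cells assigned male (1160 in cKO and 1145 in WT) they summed to 651 CPM in cKO and 642.5 CPM in WT, a log2 ratio of 0.02 (-0.01 to 0.04). The GTPase sum was at 119.5 CPM in cKO and 176 CPM in WT in cells assigned female (-0.56, -0.66 to -0.46), and at 143 and 198 CPM in cells assigned male (-0.47, -0.52 to -0.42). The difference between the sexes was not tested, and animals within a sex cannot be told apart in a pool.

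In cells assigned female 33 of the 34 measured members were lower in cKO, with 24 intervals below 0, and in cells assigned male 22 were lower and 12 higher, with 15 intervals below 0 and 5 above. No share over all genes was counted for either sex, so a general shift of those cells cannot be told apart from these counts. Ifit1 was at 36.0 CPM in cKO and 116 CPM in WT in cells assigned female, and at 92.4 and 101 CPM in cells assigned male. Ifih1 was at 47.2 CPM in cKO and 120 CPM in WT in cells assigned female, and at 108 and 107 CPM in cells assigned male. Usp18 was lower in cKO in cells assigned female (21.1 CPM in cKO, 35.4 CPM in WT) and higher in cells assigned male (42.8 and 29.8 CPM). Rsad2 was lower in both (-1.33 among female cells and -0.57 among male cells), and Zbp1 had the lower ratio in cells assigned male (-0.14 and -0.45). Among GTPase genes, Igtp had log2 ratios of -1.04 and -0.34 in cells assigned female and male, and Gbp2 -0.06, with an interval that included 0, and -0.54. Iigp1 was lower in both, at 2.99 CPM in cKO and 5.75 CPM in WT in cells assigned female and 6.55 and 21.5 CPM in cells assigned male.

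**Figure D3:**
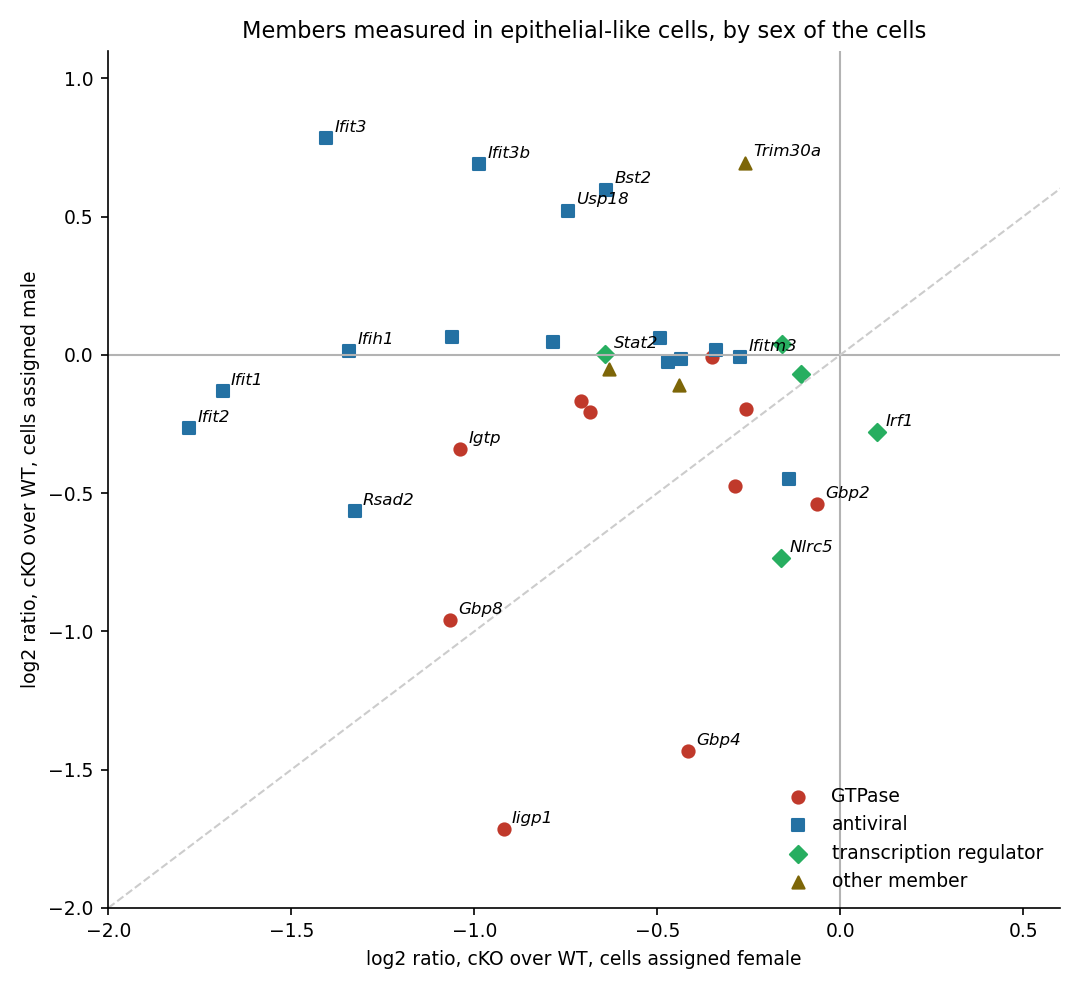
Log2 ratio of cKO over WT in epithelial-like cells assigned female (x axis) and assigned male (y axis) for the 34 members at 10 CPM or more, with the dashed line marking equal ratios. Left of the line, with the lower ratio in cells assigned female, lie 15 of 16 antiviral genes, all but Zbp1, and 6 of 10 GTPase genes, Igtp among them; Iigp1 (-0.92 and -1.71) lies below it.

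T-like cells were the class with the highest GTPase level among the classes with 100 or more cells in each library. There too most measured members stood lower in cKO. Of 31 measured members 25 were lower at any size, beside 51.4% of 9019 genes, and 7 were lower by 1.5-fold or more, beside 5.04%, with none higher by that margin, beside 3.91%. The interval lay below 0 for 10 members, beside 10.9%, and above 0 for 2, beside 9.78%. The median log2 ratio was -0.095 over the 31 members and -0.009 over all measured genes. It was -0.089 over the 13 GTPase genes and -0.56 over the 10 measured antiviral genes. The GTPase sum was 506 CPM in cKO and 606.5 CPM in WT (-0.26, -0.36 to -0.16), and the antiviral sum 364 and 528 CPM (-0.53, -0.65 to -0.42), where the antiviral ratio was -0.23 with doublets kept. Iigp1 was at 24.9 CPM in cKO and 70.5 CPM in WT (-1.50, -1.90 to -1.12), Ifit1 at 23.1 and 62.2 CPM (-1.43) and Ifitm3 at 99.2 and 165 CPM (-0.74). Trim30a was higher, at 96.8 CPM in cKO and 67.6 CPM in WT (0.51, 0.24 to 0.80).

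The T-like clusters had different ratios. In cluster 14, led by Tnfrsf9, Il2ra and Ctla4, the antiviral sum was 347 CPM in cKO and 761 CPM in WT (-1.13, -1.32 to -0.95), while the GTPase sum was 730 and 774 CPM (-0.09, -0.23 to 0.06). In cluster 11, led by Themis and Ccl5, the GTPase sum was 396 CPM in cKO and 505 CPM in WT (-0.35, -0.51 to -0.19) and the antiviral sum 409 and 368 CPM (0.15, -0.03 to 0.33). Without Ifitm3 the cluster 11 antiviral sum was higher, at 302 CPM in cKO and 220.0 CPM in WT (0.46, 0.23 to 0.69). In cluster 23, led by Il17a and Trdc (46 cKO and 48 WT cells), the antiviral ratio was -0.93 (-1.34 to -0.54).

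In macrophage and monocyte-like cells most measured members were higher in cKO, in 1 of the 2 clusters of the class. Of 32 measured members 7 were lower at any size, beside 56.4% of 8643 genes. In 6 members the level was higher by 1.5-fold or more, beside 5.4%, and in 2 lower by that margin, beside 7.78%; the interval lay above 0 for 15, beside 13.8%, and below 0 for 2, beside 18.5%. The antiviral sum was 1662 CPM in cKO and 1129 CPM in WT (0.56, 0.50 to 0.61), against a GTPase sum of 468 and 421.5 CPM (0.15, 0.05 to 0.25). Gbp5 was at 70.1 CPM in cKO and 22.9 CPM in WT (1.61, 1.26 to 1.99), Ifih1 at 181 and 84.3 CPM (log2 ratio 1.104) and Ifitm3 at 851 and 518 CPM (0.71). Gbp8 was lower, at 39.0 CPM in cKO and 62.6 CPM in WT (-0.68, -0.98 to -0.39). The GTPase log2 ratio was 0.18 in cluster 9 (221 cKO and 158 WT cells) and -0.54 (-0.99 to -0.11) in cluster 15 (109 and 102 cells), and over the class it was -0.14 with equal cluster weights and -0.52 in cells assigned female. The antiviral log2 ratio was 0.63 (0.57 to 0.69) in cluster 9 and 0.006 (-0.18 to 0.19) in cluster 15, where it was -0.37 (-0.65 to -0.10) without Ifitm3 and the transcription regulators stood at -0.93 (-1.62 to -0.31).

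**Figure D4:**
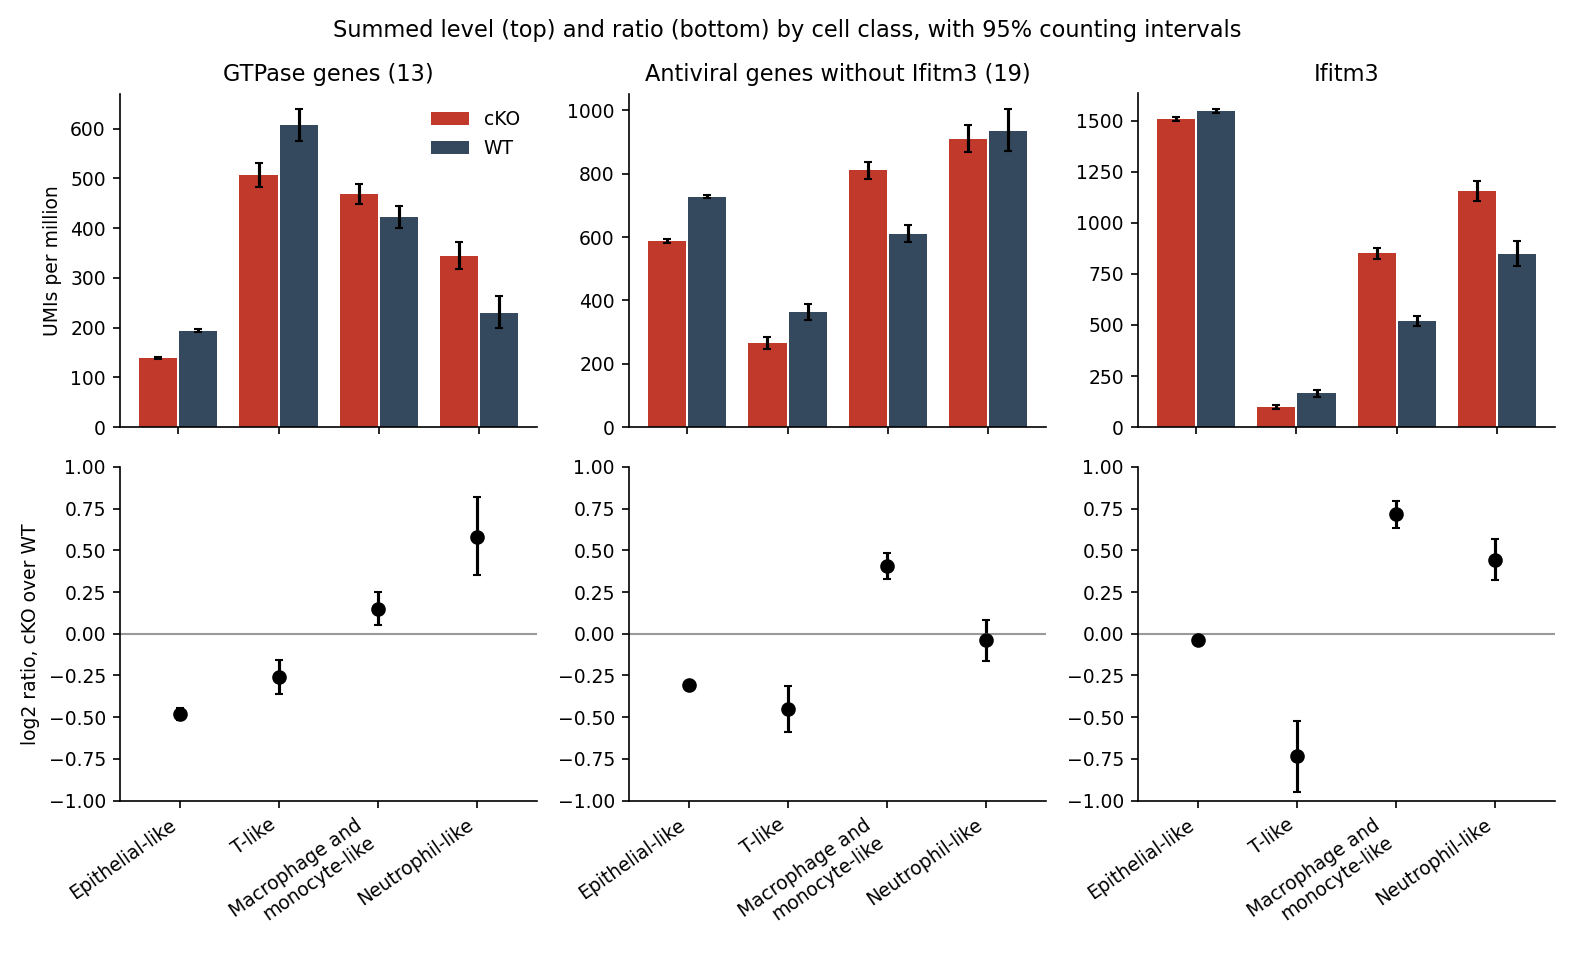
Summed level (top, CPM; bars start at 0) and log2 ratio of cKO over WT (bottom) of the 13 GTPase genes, 19 antiviral genes without Ifitm3, and Ifitm3, in 4 cell classes, with 95% counting intervals. Epithelial-like and T-like ratios lie below 0 in each panel, and macrophage and monocyte-like ratios above it.

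In neutrophil-like cells the ratio of all genes was itself shifted, with a median log2 ratio of -0.29 over 7410 measured genes and 72.6% of them lower in cKO, so values are read against that shift. Of 32 measured members 11 were lower at any size. In 7 the level was higher by 1.5-fold or more, beside 4.99%, and in 5 lower by that margin, beside 27.7%; the interval lay above 0 for 8, beside 5.05%, and below 0 for 3, beside 21.6%. The GTPase sum was 343 CPM in cKO and 229 CPM in WT (0.58, 0.35 to 0.82), but its ratio was -1.46 in cells assigned female. Gbp2 was at 148 CPM in cKO and 86.3 CPM in WT (0.77), Rnf213 at 197 and 115 CPM (0.77) and Irf1 at 239 and 167 CPM (0.52). Parp14 was at 63.8 CPM in cKO and 97.8 CPM in WT (-0.62). Isg15 was at 255 CPM in cKO and 299 CPM in WT (-0.23), a ratio above the median of all genes. The antiviral genes without Ifitm3 were at 911 CPM in cKO and 936 CPM in WT (-0.04, -0.16 to 0.08). That interval included 0 and lay above the all-gene median of -0.29.

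Classes with fewer than 100 cells in a library are given as levels. The GTPase sum was highest in endothelial-like cells, at 623 CPM in 49 cKO cells and 1410.0 CPM in 36 WT cells, and in fibroblast-like cells it was 371 CPM in 75 cKO cells and 1062 CPM in 81 WT cells. Iigp1 took 161 CPM in cKO and 488 CPM in WT fibroblast-like cells, and 220.5 and 454 CPM in endothelial-like cells. In cKO, 13 members had their highest class level in neutrophil-like cells, against 7 in WT, and 5 had it in endothelial-like cells, against 16 in WT. The same count was not made over all genes, so it shows no shift particular to the members. The classes compared also differed, with plasma-like cells entering in WT only and squamous-like cells in cKO only. The 55 squamous-like cells were found in the cKO library and in none of the WT cells, and they had 65.9 CPM of GTPase UMIs and 2058 CPM of Ifitm3.

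The wider pathway was measured alongside. Ifng, the ligand for the type II response, was at 53.6 CPM in cKO (179 UMIs) and 104 CPM in WT (250 UMIs) T-like cells (-0.95). A similar share of T-like cells had an Ifng UMI, 11.3% in cKO (44 cells) and 12.2% in WT (35 cells), against 0.30% and 0.29% of epithelial-like cells, and 1 WT cell held 71 of the UMIs. Ifnb1 gave 42 UMIs in cKO and 1 UMI in WT macrophage and monocyte-like cells, but 41 of the 42 lay in 1 cell. In epithelial-like cells Ifnb1 gave 3 UMIs in cKO and 48 UMIs in WT, the WT ones in 14 cells, and the type III ligand gene Ifnl2 gave 1 UMI in cKO and 24 UMIs in WT.

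Receptors in epithelial-like cells were of mixed direction, 3 lower and 3 higher in cKO, while the signal transducers were all lower. Ifngr1 was higher at 118 CPM in cKO and 98.4 CPM in WT (0.27), Ifnar1 lower at 29.9 and 34.03 CPM (-0.18), and Ifnar2 was at 22.21 and 22.15 CPM. All 5 signal transducers measured were lower, 4 with an interval below 0, beside 55.7% and 35.9% of all measured genes. Their median log2 ratio was -0.21 and the lowest -0.36. The kinase gene Jak1 was at 165 CPM in cKO and 191 CPM in WT (-0.21) and Jak2 at 156.5 and 184.5 CPM (-0.24). Tyk2 was at 12.1 CPM in cKO and 12.3 CPM in WT (-0.02) with an interval that included 0. Among negative regulators, Socs3 was at 38.3 CPM in cKO and 25.9 CPM in WT (0.57) and Cish at 13.2 and 18.5 CPM (-0.49). Of 57 other interferon-induced genes 31 were measured in epithelial-like cells. Of these 23 were lower, beside 55.7% of all measured genes, with a median log2 ratio of -0.12. They included Cxcl10, a chemokine for T cells, at 100.6 CPM in cKO and 154.5 CPM in WT (-0.62, -0.66 to -0.58), while Cxcl9, another ligand of the same receptor, was higher at 13.3 CPM in cKO and 7.14 CPM in WT (0.90, 0.75 to 1.04).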

How the data were processed

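Each library's UMI counts were deposited as a matrix of whole-number counts per gene and barcode, made by Cell Ranger 7.2.0 per the file headers; Cell Ranger, Seurat 3.0 and mm10 appear in the submitters' processing notes. The total was 97364087 UMIs over 6723 cKO barcodes and 116066712 UMIs over 9445 WT barcodes. Barcodes with under 500 genes or over 25% mitochondrial UMIs were left out, as were the highest Scrublet doublet scores (0.8% per 1000 barcodes; 362 cKO and 714 WT). Both libraries were clustered together (scanpy 1.11.5, leidenalg 0.10.2; 2000 variable genes, 30 components, 20 neighbours, resolution 1; 32 clusters) without interferon-induced, class I, sex-linked or Mtch2 genes. A cluster took a class name other than epithelial where that class's markers stood 2 above their mean over clusters and led the next class by 2 (log2 scale). A cluster where no other class reached 2 was named epithelial if its epithelial marker level was at or above the middle of the range over clusters. This scoring rule was set after the clusters were seen, and a cell needed 2 distinct markers of the class. Counts were summed by class and library. Ratios had 0.5 counts added and exact conditional binomial intervals; levels have exact Poisson intervals and shares exact Clopper-Pearson intervals. UMIs read transcript ends and are not compared between genes. The ratio step was tested on simulated data. The rule for naming genes was that every measured member is named in epithelial-like cells and, elsewhere, up to 3 members each way at 50 CPM or more whose interval excluded 0. Gene positions are from GENCODE on GRCm38. The alternatives tried were doublets kept, another mitochondrial limit, resolution, clustering genes, gate, weighting, scaling, added count, sex of cells and level limits, with 2 added after seeing the data: leaving out Ifitm3, and leaving out clusters 5, 7 and 13. The members and lists were chosen with earlier results of these data known.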

Additional observations from a re-analysis of the deposited data

Results flagged for a closer look

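None of the differences between classes or clusters named here was tested. The GTPase sum was lower in cKO in epithelial-like cells (log2 ratio -0.48). It was higher in cKO in macrophage and monocyte-like cells (0.15), and also in those that were neutrophil-like (0.58). Within the epithelial-like class it was higher in cKO in cluster 12, led by Defa24 and Spink4 (0.74), and in cluster 16, led by Top2a (0.30). The antiviral sum was lower in epithelial-like cells (-0.12) but higher in the macrophage and monocyte-like class (0.56) and the neutrophil-like class (0.21). It was above 0 in epithelial-like clusters 1 (0.022), 2 (0.036), 5 (0.32) and 16 (0.12). GTPase UMIs were also present in cells left without a class name: unnamed cluster 0, at a median of 747 cKO and 737.5 WT UMIs per cell, had 208.5 CPM in cKO and 217 CPM in WT, and unnamed cluster 20 had 92.0 CPM in 16 cKO cells and 161 CPM in 127 WT cells.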

How the results depend on the processing

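No paired analysis was possible because there is 1 library per genotype. Log2 ratios of summed lists are for cKO over WT, and the cause of each change was not tested. In epithelial-like cells the GTPase ratio stayed between -0.56 and -0.28 and the antiviral ratio between -0.46 and -0.001241 over the alternatives run; main values were -0.48 and -0.12. The GTPase ratio was -0.52 at a 10% mitochondrial limit, -0.28 when per-cell CPM was averaged, -0.44 when scaled without mitochondrial, ribosomal, haemoglobin and immunoglobulin genes, and -0.56 in cells assigned female. In that order the antiviral ratio was -0.13, -0.063, -0.078 and -0.46. The antiviral ratio was -0.14 with equal cluster weights, -0.10 under median-of-ratios scaling (-0.09866), -0.001241 in cells assigned male and -0.31 without Ifitm3. Equal cluster weights used only clusters with 100 or more cells in each library, which left out epithelial-like clusters 12, 16 and 18. In that order these clusters had GTPase ratios of 0.74, 0.30 and -1.22, and antiviral ratios of -0.59, 0.12 and -0.04. The median GTPase ratio was -0.69 in cells assigned female (-0.685), where Iigp1, Gbp4 and Gbp6 were below 10 CPM and did not enter it. The median antiviral ratio was -0.75 among female cells, 0.003134 among male cells and -0.061 when per-cell CPM was averaged. Members lower by 1.5-fold numbered 4, but 7 with equal cluster weights, 17 in cells assigned female, 16 at a lower fold limit, 1 at 50 CPM or more, and 1 when members had to reach 20% of their highest class level. The share over all genes was counted for the main setting only, at 1.14%, so the other counts have no background beside them. The members measured also differed between some of these settings.

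In T-like cells the antiviral ratio was -0.23 with doublets kept, -0.21 among female cells and -0.38 among male cells, and the GTPase ratio -0.62 among female cells and -0.12 among male cells. In macrophage and monocyte-like cells the GTPase ratio was 0.024 when per-cell CPM was averaged, -0.14 with equal cluster weights, -0.52 among female cells and 0.29 among male cells. There the antiviral ratio was 0.65 with the gate alone, 0.28 when per-cell CPM was averaged, 0.27 with equal cluster weights, 0.16 among female cells, 0.93 among male cells and 0.41 without Ifitm3. In neutrophil-like cells the GTPase ratio was 0.86 under median-of-ratios scaling, -1.46 among female cells and 0.97 among male cells. There the antiviral ratio was 0.11 with the gate alone, 0.49 under median-of-ratios scaling, 0.51 among male cells and -0.041 without Ifitm3.

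Single epithelial members changed direction under some settings. With per-cell CPM averaged, Gbp6 was at 0.029, Ifit3 at 0.082, Ifit3b at 0.17, Ifit1bl1 at 0.16, Xaf1 at 0.21 and Parp14 at 0.001398. With equal cluster weights Xaf1 was at 0.16 and Bst2 at -0.064, and Ifitm3 was at 0.002591 when scaled without mitochondrial, ribosomal, haemoglobin and immunoglobulin genes. In cells assigned female Usp18 was at -0.75, Bst2 at -0.64, Irf1 at 0.10 and Trim30a at -0.26. In cells assigned male Ifit3 was at 0.78, Ifit3b at 0.69, Isg15 at 0.016, Oasl2 at 0.047 and Ifih1 at 0.015. Depth limits members with few UMIs in single clusters. Variation between mice is in none of the intervals.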

Other observations

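Induced genes outside the 41 members had their own pattern in macrophage and monocyte-like cells. Of 57 other interferon-induced genes 48 were measured there. At any size 37 were higher in cKO and 11 lower, where 56.4% of all measured genes were lower. The interval lay above 0 for 24, beside 13.8%, and below 0 for 4, beside 18.5%. Their median log2 ratio was 0.31, and they were not split by cluster. Cxcl9, a T cell chemokine gene, was at 145 CPM in cKO and 65.5 CPM in WT (1.15, 0.93 to 1.37), and Cxcl10 at 194 and 145 CPM (0.42, 0.26 to 0.58). In epithelial-like cells the sensor gene Ddx58 was at 28.4 CPM in cKO and 41.2 CPM in WT (-0.54), and the helicase gene Ddx60 at 32.2 and 47.3 CPM (-0.56). The type III ligand gene Ifnl3 gave 15 UMIs in 5 cKO epithelial-like cells and 61 UMIs in 16 WT cells, and none in T-like, macrophage and monocyte-like or neutrophil-like cells of either library.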
